A study of Mus musculus with 12 samples.

Results

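The genes described here are 41 that copy DNA or supply its nucleotides in dividing cells: factors that license and fire replication origins, DNA polymerases and primase, the sliding clamp and its loader, enzymes that mature the new strand, enzymes of deoxynucleotide synthesis, and regulators of entry into S phase. They were chosen by name. A probe set, the group of oligonucleotides that reads 1 transcript, was counted for a gene when it carried that gene's symbol alone in the platform annotation. By this rule 40 of the 41 genes had a probe set, 73 probe sets in all, out of 12394 genes and 20393 probe sets with a single symbol on the array; Chaf1a had none and was not analysed here. Of the 40, 37 were bright enough to be tested, and Orc1, Tyms and Ccne2 lay below the filter described with their values.

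The arrays measured total RNA of T cells carrying the transgenic 5CC7 T cell receptor, which had been injected into B10.A mice and sorted from their lymph nodes by flow cytometry 48 h after a peptide was given through the tail vein. The peptide was MCC, per the labels a strong agonist of this receptor, or 102S, a weak one, and either 2 µg or 0.2 µg was injected, so that 4 groups of 3 arrays resulted. The design asks how the response of the cells varies with the strength and the dose of the agonist. Every group had received a peptide, so all differences are between stimulated cells. The lymph nodes were pooled, and the labels do not say whether the replicates came from separate animals, so p-values measure the spread between these samples, which may in part be technical.

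Replication starts at origins on which the origin recognition complex, Cdc6 and Cdt1 load the ring-shaped MCM helicase while the cell is in G1. In S phase, Cdc45 and other factors turn the loaded rings into moving forks, primase with DNA polymerase alpha starts each new strand, polymerases delta and epsilon extend it, and PCNA, loaded by replication factor C, holds them to the template. Ribonucleotide reductase supplies the deoxynucleotides, and many of these genes are switched on together by E2F transcription factors when a resting cell enters the cycle. Resting T cells hold small nucleotide pools and divide rapidly after they meet an agonist, so these transcripts are commonly read as signs of cells in or near S phase. In bulk RNA a larger share of cycling cells and more transcript per cell cannot be told apart.

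All values below are log2 expression values as deposited. Differences are given in log2 units with their standard error, group means with the standard deviation (SD, n = 3). A gene was called changed at an adjusted p under 0.05, from limma's moderated test with Benjamini-Hochberg adjustment over 13556 probe sets. Where only the lower group mean lay below log2 4.48, the level under which probe sets were left out, the difference is given as a lower limit, without a fold. Among the tested genes this held for Cdc6, Cdc45, Tk1 and Chek1, all with 0.2 µg of 102S, and these 4 passed the filter only through their other groups.

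Arrays of the same group had correlations of 0.977 to 0.995 over all probe sets, and array medians differed by at most 0.089. Markers of T cells were high in all groups, with a summed level of 13.96 to 14.28 for the 7 of 8 listed genes that were measured. Of these 7, Cd5, a surface protein that dampens T cell receptor signals, was lower with 0.2 µg of 102S than with 0.2 µg of MCC (by 1.11 ± 0.14, adjusted p = 0.000173) and than with 2 µg of 102S (by 1.27 ± 0.14, adjusted p = 0.000232), and the other 6 were called in none of the 6 comparisons. Transcripts of B cells, mostly Ighm, summed to 11.38 to 11.58 with 0.2 µg of 102S and 10.55 to 10.67 with 0.2 µg of MCC, with 3 of the 6 measured below the filter in all groups. This sum follows Ighm and not the B cell markers as a set: of the 3 tested, 1 was called higher and 1 lower with MCC at 0.2 µg. Transcripts of NK cells summed to 8.89 to 9.42 with 0.2 µg of 102S and 6.90 to 7.09 with 2 µg of MCC, and 5 of 7 myeloid markers lay below the filter in all groups. The part of these markers in the results was not tested. Xist, the transcript of the inactive X chromosome, read 11.72 to 12.27 on replicate 1 of every group and 4.05 to 5.10 on the other 8 arrays, so replicate 1 was of female type throughout. For the β-actin control, the 3′ minus 5′ signal, which is known to grow when RNA is degraded, was lowest in the 3 arrays with 2 µg of MCC, at 0.63 ± 0.12 (SD), and 1.24 ± 0.41 to 1.62 ± 0.81 in the other groups.

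Because E2F factors are known regulators of many of these genes, the 250 bases before each RefSeq start site (build GRCm38.p6) were searched on both strands for the E2F-type motif TTTNNCGC and for the CCAAT box, with overlapping matches of a motif joined into 1 stretch. Entries existed for 36 of the 41 genes; Prim2, Rfc2, Pole, Ccne2 and Mcm4 had none. The E2F-type motif was found for 7 of the 36 genes (19.4%), against 4.94% of all 27025 genes, and by promoter for 17.1% of 41 against 4.28% of 32851. CCAAT was found for 20 of the 36 (55.6%), against 37.49% of all genes. A match is a description of these letters and not a shown binding site. Promoters of 3 genes with the E2F-type motif are printed first, because Mcm6 (3 matches in 2 stretches) and Mcm5 (2 in 1) had overlapping or repeated matches and Cdc6 was among the genes with large differences. Those of Pclaf and Rrm2 follow because these genes had the largest differences at the low dose while their windows held no E2F-type match. Capitals mark the E2F-type stretches in the first 3 and CCAAT, in either direction, in the last 2; each runs 5′ to 3′ and ends at the base before the start site. Mcm6 lies at chr1:128359706-128359955 on the minus strand, Mcm5 at chr8:75109259-75109508 on the plus strand, Cdc6 at chr11:98907901-98908150 on the plus strand, Pclaf at chr9:65890073-65890322 on the plus strand and Rrm2 at chr12:24708004-24708253 on the plus strand.
Mcm6: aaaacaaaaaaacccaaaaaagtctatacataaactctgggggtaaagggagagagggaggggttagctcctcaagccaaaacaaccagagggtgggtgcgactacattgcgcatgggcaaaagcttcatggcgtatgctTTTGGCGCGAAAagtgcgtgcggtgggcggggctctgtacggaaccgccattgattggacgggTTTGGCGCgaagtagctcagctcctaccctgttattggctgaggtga
Mcm5: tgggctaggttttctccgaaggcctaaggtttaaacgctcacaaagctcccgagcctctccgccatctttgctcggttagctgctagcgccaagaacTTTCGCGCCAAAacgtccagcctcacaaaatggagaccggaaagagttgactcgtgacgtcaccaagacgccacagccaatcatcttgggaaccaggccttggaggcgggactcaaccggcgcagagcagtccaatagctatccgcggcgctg
Cdc6: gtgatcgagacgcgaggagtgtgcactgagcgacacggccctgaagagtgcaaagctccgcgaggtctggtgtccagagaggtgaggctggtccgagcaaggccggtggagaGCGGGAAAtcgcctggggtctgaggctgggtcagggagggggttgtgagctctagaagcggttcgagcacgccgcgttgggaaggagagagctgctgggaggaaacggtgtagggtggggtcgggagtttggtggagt
Pclaf: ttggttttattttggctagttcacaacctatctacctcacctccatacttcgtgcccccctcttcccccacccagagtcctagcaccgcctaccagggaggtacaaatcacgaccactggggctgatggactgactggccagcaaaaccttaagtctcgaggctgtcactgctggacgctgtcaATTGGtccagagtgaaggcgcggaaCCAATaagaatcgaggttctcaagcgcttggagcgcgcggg
Rrm2: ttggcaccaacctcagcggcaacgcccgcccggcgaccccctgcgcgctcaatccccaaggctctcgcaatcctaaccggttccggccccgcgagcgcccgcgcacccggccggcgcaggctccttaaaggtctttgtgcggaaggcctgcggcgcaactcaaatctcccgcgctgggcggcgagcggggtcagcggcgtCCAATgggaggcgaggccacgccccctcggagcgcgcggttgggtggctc

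After 0.2 µg of peptide most of these transcripts were more abundant with the strong agonist, and none was called lower. Of the 37 tested, 27 were called higher with MCC and 0 lower, while 7.85% of all tested probe sets were called higher and 14.3% in either direction. The median difference was 0.96, against -0.04 over all tested probe sets. At 2 µg, 16 were called higher and 0 lower, against 4.04% of all probe sets higher and 10.3% in either direction, with a median difference of 0.55 against -0.04. With no filter on low values the counts were 29 and 16 of the 40 genes with a probe set, against 7.41% and 5.11% of all probe sets in either direction. Of the 16 genes called at 2 µg, 15 were also called at 0.2 µg (93.8% of the 16 and 55.6% of the 27), the exception being E2f1; of all probe sets called higher at 2 µg, 79.2% were also called higher at 0.2 µg. The doses share no array but share the estimate of the spread. Over all 37 genes the median difference within replicate 1 was 0.95 at 0.2 µg and 0.52 at 2 µg, and within replicates 2 and 3 it was 1.04 and 0.57, against medians of -0.05 to -0.02 over all probe sets. Same-numbered arrays of the 2 µg groups deviated together, though numbers 2 and 3 were not set apart from each other. With the replicate number as a block 22 genes were called higher at 2 µg, against 7.35% of all probe sets. The 6 added were Mcm10 (adjusted p = 0.0165), Cdc45 (0.0224), Rfc3 (0.0247), Mcm7 (0.0267), Mcm3 (0.0307) and Fen1 (0.0417).

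The count at 2 µg depended on single arrays. It was 9 without replicate 1 of 2 µg 102S, 9 without replicate 2 of 2 µg MCC and 10 without replicate 3 of 2 µg MCC. The share of all probe sets called in either direction fell as well, from 10.3% to 5.79%, 7.56% and 6.76%. Of the 16 genes, 8 stayed called whichever array was left out: Mcm5, Prim1, Pola1, Pole, Pclaf, Lig1, Rrm1 and Chek1. At 0.2 µg, 22 of the 27 stayed called whichever array was left out. The exceptions at that dose were Mcm4, Pcna, Rfc2, Fen1 and Rpa2.

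**Figure D1:**
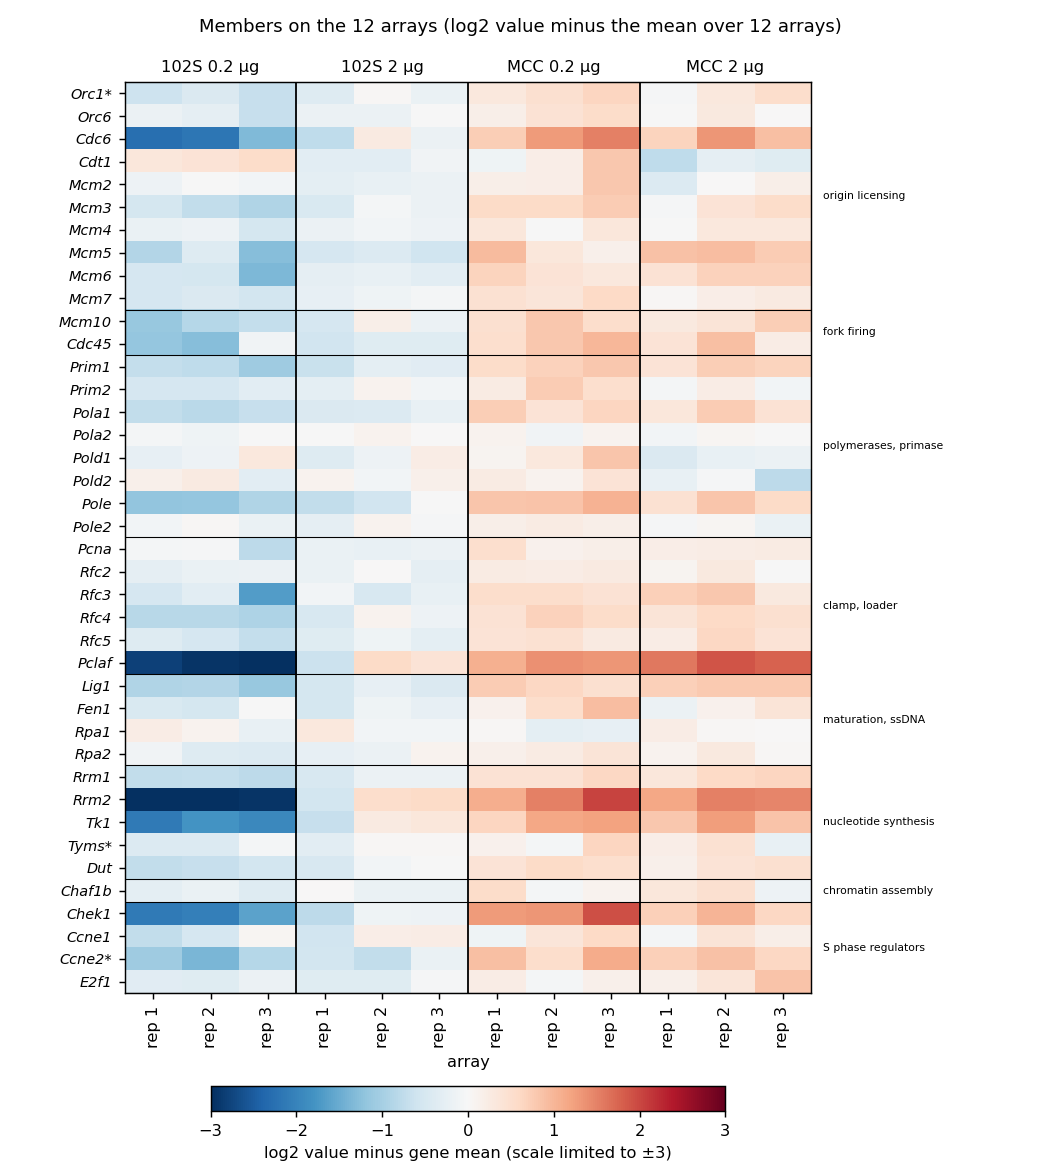
Each row is a gene and each column an array; colour shows the log2 value minus that gene's mean over the 12 arrays, limited to 3 in either direction, and an asterisk marks the 3 genes below the filter. The 3 arrays with 0.2 µg of 102S are blue in most rows, and Cdc6, Pclaf, Rrm2, Tk1 and Chek1 have the deepest colours.

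The group means had a common order. In 32 of the 37 genes the lowest mean was that with 0.2 µg of 102S, as in 27.4% of all tested probe sets. In 31 the means rose from 0.2 µg of 102S through 2 µg of 102S to both MCC groups, as in 15% of all probe sets. The highest mean was that with 0.2 µg of MCC for 25 genes (22.5% of all probe sets), that with 2 µg of MCC for 10 and that with 2 µg or 0.2 µg of 102S for 2. The latter were Cdt1 and Pola2.

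Among the licensing factors, 7 of 9 tested genes were called higher with MCC at 0.2 µg and 3 at 2 µg. Cdc6, the ATPase that recruits the MCM helicase to origins, read 3.13, 3.20 and 4.05 for 102S at 0.2 µg, 4.62, 5.65 and 5.20 for 102S at 2 µg, 6.11, 6.65 and 6.90 for MCC at 0.2 µg and 6.05, 6.70 and 6.29 for MCC at 2 µg. Both MCC groups lay above both 102S groups on every array, and the 102S groups did not overlap each other. The difference was 3.10 ± 0.32 at 0.2 µg, a lower limit (adjusted p = 3.78e-05), and 1.19 ± 0.32 at 2 µg (2.28-fold, adjusted p = 0.0341). The 2 µg call was lost in 4 of 12 omissions of 1 array, with an adjusted p of up to 0.131.

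Of the 6 MCM subunits that form the helicase ring, 5 were called at 0.2 µg and 2, Mcm5 and Mcm6, at 2 µg. Mcm5 read 5.63, 6.13 and 5.24 at 0.2 µg and 6.01, 6.10 and 5.91 at 2 µg of 102S, then 7.45, 6.84 and 6.67 at 0.2 µg and 7.39, 7.42 and 7.27 at 2 µg of MCC. Both MCC groups lay above every 102S array, and the doses of each peptide overlapped. Its differences were 1.32 ± 0.23 at 0.2 µg and 1.36 ± 0.23 at 2 µg (2.56-fold, adjusted p = 0.00353), 1 of the 2 largest of these genes at the high dose. Mcm3 read 7.52, 7.31 and 7.13 for 102S at 0.2 µg, 7.59, 7.98 and 7.86 for 102S at 2 µg, 8.62, 8.62 and 8.81 for MCC at 0.2 µg and 8.02, 8.46 and 8.60 for MCC at 2 µg, with no overlap between any 2 groups. It was higher with MCC by 1.36 ± 0.17 at 0.2 µg (adjusted p = 0.000171), and at 2 µg the difference of 0.55 ± 0.17 did not pass (adjusted p = 0.0612). Of its 5 tested probe sets 4 were called at 0.2 µg, and the other gave 0.19 ± 0.20.

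Mcm6 was higher by 1.26 ± 0.20 and 0.87 ± 0.20 at 0.2 and 2 µg, and Mcm7 by 0.96 ± 0.10 at 0.2 µg, with 0.31 ± 0.10 and no call at 2 µg. Mcm4 was a subunit with a small difference. It read 9.10, 9.15 and 8.79 at 0.2 µg and 9.13, 9.24 and 9.15 at 2 µg of 102S, then 9.64, 9.31 and 9.65 at 0.2 µg and 9.30, 9.63 and 9.63 at 2 µg of MCC, and was called at 0.2 µg by 0.52 ± 0.14 (adjusted p = 0.0267, up to 0.101 with 1 array left out). Mcm2 was called at neither dose, with 0.48 ± 0.18 and 0.16 ± 0.18. Orc6, a subunit of the origin recognition complex, was higher by 0.76 ± 0.17 at 0.2 µg only, with 0.22 ± 0.17 at 2 µg.

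Orc1, the largest subunit of that complex and an ATPase, lay below the filter. Its arrays read 2.50, 2.69 and 2.44 for 102S at 0.2 µg, 2.74, 3.16 and 2.92 for 102S at 2 µg, 3.43, 3.60 and 3.77 for MCC at 0.2 µg and 3.08, 3.44 and 3.64 for MCC at 2 µg. In the fit without a filter the difference at 0.2 µg was 1.05 ± 0.17 (adjusted p = 0.00122) and that at 2 µg 0.45 ± 0.17 (adjusted p = 0.174). All 4 group means were below the filter, so these differences are inexact. Cdt1, the partner of Cdc6 in loading the helicase, went another way. It read 8.93, 8.99 and 9.13 at 0.2 µg and 8.27, 8.26 and 8.48 at 2 µg of 102S, then 8.46, 8.78 and 9.39 at 0.2 µg and 7.83, 8.31 and 8.22 at 2 µg of MCC, highest with 0.2 µg of 102S and lowest with 2 µg of MCC. The peptides differed by -0.14 ± 0.21 at 0.2 µg and -0.22 ± 0.21 at 2 µg, neither called, with 95% intervals of -0.59 to 0.31 and -0.67 to 0.23.

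Both tested factors of fork firing were called at 0.2 µg and neither at 2 µg. Mcm10, which binds the helicase and helps to activate it, read 4.31, 4.59 and 4.72 for 102S at 0.2 µg, 4.94, 5.61 and 5.27 for 102S at 2 µg, 5.92, 6.26 and 5.96 for MCC at 0.2 µg and 5.73, 5.84 and 6.20 for MCC at 2 µg. The MCC arrays lay above all 102S arrays. The difference was 1.50 ± 0.20 at 0.2 µg (2.84-fold, adjusted p = 0.000339) and 0.65 ± 0.20 at 2 µg (adjusted p = 0.0648). Cdc45, part of the active helicase, read 4.03, 3.90 and 5.07 at 0.2 µg and 4.60, 4.82 and 4.82 at 2 µg of 102S, then 5.68, 5.99 and 6.18 at 0.2 µg and 5.58, 6.07 and 5.41 at 2 µg of MCC. Replicate 3 with 0.2 µg of 102S was higher than the other arrays of its group, and the MCC arrays lay above all 102S arrays. The difference was 1.61 ± 0.28 at 0.2 µg, a lower limit (adjusted p = 0.00239), and 0.94 ± 0.28 at 2 µg (adjusted p = 0.0563).

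Of the 8 tested polymerase and primase genes, 4 were called at 0.2 µg (Prim1, Prim2, Pola1 and Pole) and 3 at 2 µg (Prim1, Pola1 and Pole). Prim1, the catalytic subunit of primase, read 7.05, 7.01 and 6.71 for 102S at 0.2 µg, 7.09, 7.47 and 7.44 for 102S at 2 µg, 8.33, 8.47 and 8.58 for MCC at 0.2 µg and 8.17, 8.51 and 8.43 for MCC at 2 µg. The MCC arrays lay above all 102S arrays, and Prim1 was higher by 1.53 ± 0.15 at 0.2 µg (2.90-fold, adjusted p = 2.78e-05) and 1.04 ± 0.15 at 2 µg (2.05-fold, adjusted p = 0.00122). Pole, the catalytic subunit of polymerase epsilon, which copies the leading strand, read 4.63, 4.65 and 4.91 at 0.2 µg and 5.06, 5.23 and 5.78 at 2 µg of 102S, then 6.63, 6.66 and 6.85 at 0.2 µg and 6.25, 6.65 and 6.38 at 2 µg of MCC. It was higher with MCC by 1.98 ± 0.19 at 0.2 µg (3.95-fold, adjusted p = 2.5e-05) and 1.07 ± 0.19 at 2 µg (adjusted p = 0.00455), again with no overlap between the peptides. Pola1, the catalytic subunit of polymerase alpha, was higher by 1.35 ± 0.15 and 0.87 ± 0.15.

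Pole2, Pola2, Pold1 and Pold2 were called at neither dose. Pole2, the second subunit of polymerase epsilon, read 6.93, 7.03 and 6.81 for 102S at 0.2 µg, 6.74, 7.11 and 6.97 for 102S at 2 µg, 7.19, 7.24 and 7.17 for MCC at 0.2 µg and 6.98, 7.06 and 6.80 for MCC at 2 µg. All groups but that with 0.2 µg of MCC overlapped, and the differences of 0.28 ± 0.14 at 0.2 µg and 0.01 ± 0.14 at 2 µg were not called. Pola2, the second subunit of polymerase alpha, read 6.95, 6.89 and 6.99 at 0.2 µg and 6.997, 7.12 and 7.03 at 2 µg of 102S, then 7.12, 6.90 and 7.12 at 0.2 µg and 6.92, 7.07 and 7.01 at 2 µg of MCC, with 95% intervals of -0.15 to 0.36 at 0.2 µg and -0.31 to 0.21 at 2 µg for the difference. Pold2, a subunit of polymerase delta, read 7.19, 7.32 and 6.73 for 102S at 0.2 µg, 7.14, 6.96 and 7.19 for 102S at 2 µg, 7.29, 7.14 and 7.45 for MCC at 0.2 µg and 6.82, 7.003 and 6.26 for MCC at 2 µg. Replicate 3 with 2 µg of MCC was its lowest array, and the differences were 0.21 ± 0.21 and -0.40 ± 0.21, with Pold1, the catalytic subunit of polymerase delta, at 0.43 ± 0.22 and -0.17 ± 0.22. Prim2, the large primase subunit, was higher by 0.94 ± 0.17 at 0.2 µg, with 0.12 ± 0.17 and no call at 2 µg.

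All 6 tested genes of the sliding clamp, its loader and its partners were called higher at 0.2 µg, and 3 at 2 µg. Pclaf, a small protein that binds PCNA at forks and at damaged DNA, read 5.68, 5.55 and 4.88 at 0.2 µg and 7.83, 9.05 and 8.90 at 2 µg of 102S, then 9.55, 9.84 and 9.79 at 0.2 µg and 10.05, 10.37 and 10.26 at 2 µg of MCC. No 2 groups overlapped, and within 2 µg of 102S replicate 1 was lower than the others. It was higher with MCC by 4.36 ± 0.29 at 0.2 µg (20.6-fold, adjusted p = 1.29e-06) and by 1.63 ± 0.29 at 2 µg (3.10-fold, adjusted p = 0.00383), the largest of these genes at the high dose and, with Rrm2, at the low dose.

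Pcna, the clamp itself, changed far less. It read 11.11, 11.14 and 10.40 for 102S at 0.2 µg, 10.98, 10.95 and 10.99 for 102S at 2 µg, 11.69, 11.31 and 11.36 for MCC at 0.2 µg and 11.39, 11.41 and 11.44 for MCC at 2 µg. Replicate 3 with 0.2 µg of 102S was the lowest array, and every MCC array lay above every 102S array. The difference was 0.57 ± 0.17 at 0.2 µg (1.48-fold, adjusted p = 0.0396), a call lost in 9 of 12 omissions, and 0.44 ± 0.17 at 2 µg (adjusted p = 0.128). Of the clamp loader, Rfc4 was higher by 1.43 ± 0.15 and 0.67 ± 0.15, Rfc5 by 0.91 ± 0.14 and 0.68 ± 0.14, at 0.2 and 2 µg. The 2 µg call of Rfc4 was lost in some omissions of 1 array, with an adjusted p of up to 0.0764. Its dimmer probe set gave 0.20 at 2 µg, not called (adjusted p = 0.729). The 2 µg call of Rfc5 was lost without replicate 1 of 2 µg 102S (adjusted p = 0.0515). Rfc3 and Rfc2 were called at 0.2 µg only, by 1.33 ± 0.29 and 0.47 ± 0.12.

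**Figure D2:**
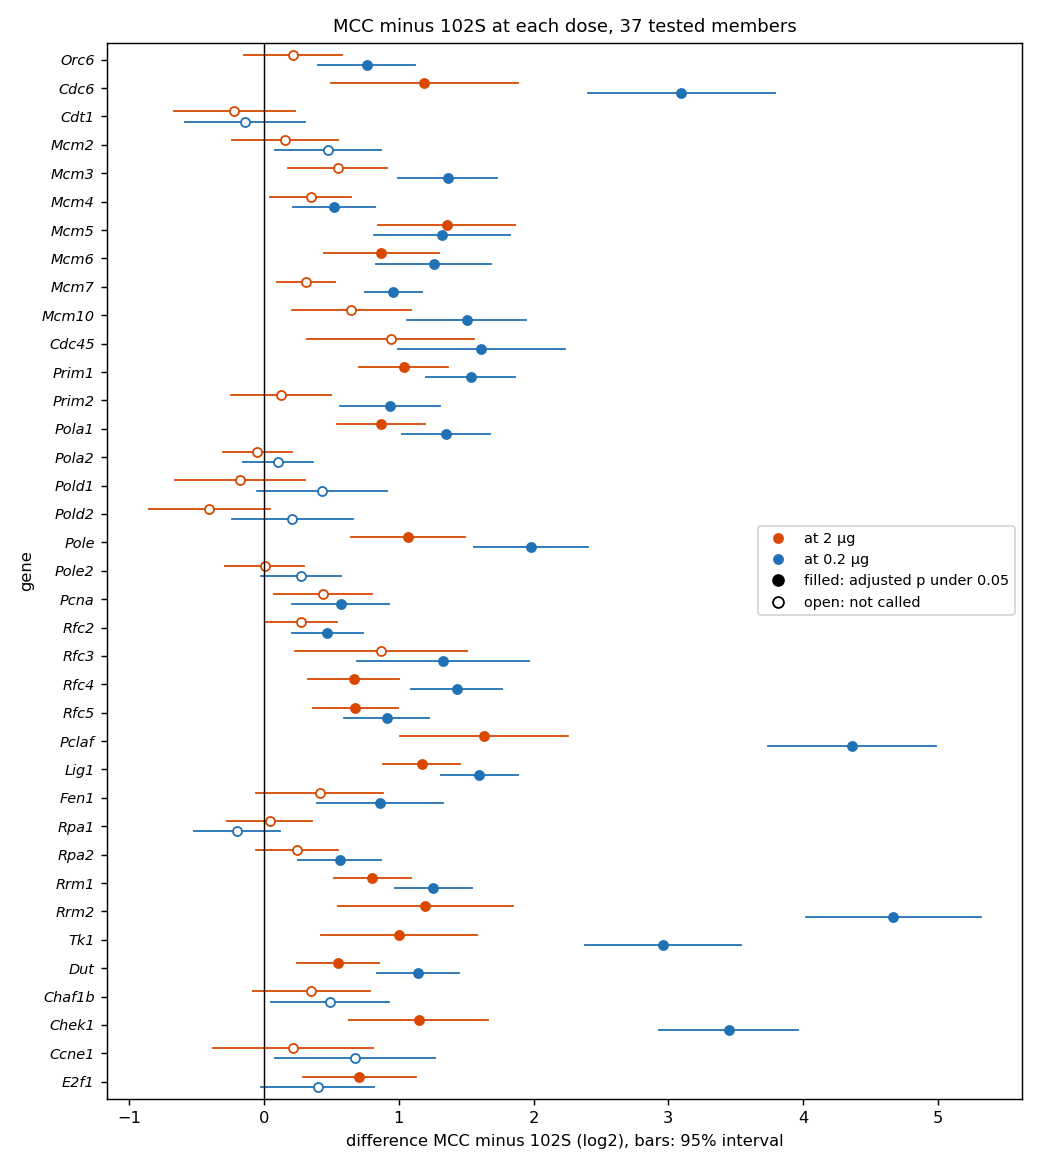
Points give the difference MCC minus 102S for the 37 tested genes at 2 µg (orange) and 0.2 µg (blue) on the log2 scale, with bars for the 95% interval and filled points for adjusted p under 0.05. Of the filled points 27 are blue and 16 orange, all to the right of 0, and Rrm2, Pclaf, Chek1, Cdc6 and Tk1 lie farthest right at 0.2 µg.

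Of the 4 genes that mature new strands or bind single-stranded DNA, 3 were called at 0.2 µg and 1 at 2 µg. Lig1, the ligase that joins Okazaki fragments, read 6.40, 6.44 and 6.18 at 0.2 µg and 6.79, 7.06 and 6.87 at 2 µg of 102S, then 8.07, 7.95 and 7.79 at 0.2 µg and 8.03, 8.10 and 8.10 at 2 µg of MCC. The arrays of a group lay close together, and both MCC groups were above both 102S groups. Lig1 was higher by 1.60 ± 0.13 at 0.2 µg (3.03-fold, adjusted p = 6.92e-06) and 1.17 ± 0.13 at 2 µg (2.25-fold, adjusted p = 0.000233). Fen1, the nuclease that trims Okazaki fragments, read 8.17, 8.11 and 8.63 for 102S at 0.2 µg, 8.10, 8.50 and 8.40 for 102S at 2 µg, 8.77, 9.17 and 9.55 for MCC at 0.2 µg and 8.46, 8.76 and 9.02 for MCC at 2 µg. It was higher by 0.86 ± 0.22 at 0.2 µg (adjusted p = 0.0195, lost in 4 of 12 omissions), and at 2 µg, with overlapping groups, the difference was 0.41 ± 0.22 with no call. Rpa1, the large subunit of the single-strand binding complex, which also serves in repair, read 10.76, 10.65 and 10.31 at 0.2 µg and 10.85, 10.46 and 10.45 at 2 µg of 102S, then 10.58, 10.25 and 10.29 at 0.2 µg and 10.77, 10.57 and 10.54 at 2 µg of MCC. All 4 groups overlapped, and the 95% intervals of the difference were -0.52 to 0.12 at 0.2 µg and -0.27 to 0.36 at 2 µg. Rpa2, the second subunit, was higher by 0.56 ± 0.14 at 0.2 µg.

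By their highest-mean probe sets, all 4 tested genes of nucleotide synthesis were called higher with MCC at both doses. Rrm2, the subunit of ribonucleotide reductase that cells make in S phase, read 4.61, 4.27 and 4.72 for 102S at 0.2 µg, 7.10, 8.18 and 8.23 for 102S at 2 µg, 8.74, 9.17 and 9.69 for MCC at 0.2 µg and 8.82, 9.16 and 9.12 for MCC at 2 µg. The arrays with 0.2 µg of 102S lay far below all others, those with 2 µg of 102S in between, and the MCC groups overlapped each other. The difference was 4.67 ± 0.30 at 0.2 µg (adjusted p = 1.13e-06) and 1.20 ± 0.30 at 2 µg (2.29-fold, adjusted p = 0.0241). The latter call was lost in 3 of 12 omissions. These values are those of the brightest of 3 tested probe sets. With 0.2 µg of 102S and of MCC, another had means of 4.32, below the filter, and 7.91. The dimmest had 4.70 and 6.35, so both gave a smaller difference. Tk1, the thymidine kinase of S phase, read 3.83, 4.16 and 4.04 at 0.2 µg and 5.26, 6.24 and 6.30 at 2 µg of 102S, then 6.61, 7.13 and 7.17 at 0.2 µg and 6.78, 7.21 and 6.81 at 2 µg of MCC. It was higher by 2.96 ± 0.27 at 0.2 µg, a lower limit (adjusted p = 1.32e-05), and by 1.00 ± 0.27 at 2 µg (adjusted p = 0.0317, lost in 4 of 12 omissions).

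Rrm1, the catalytic subunit of ribonucleotide reductase and Rrm2's partner, read 7.02, 7.04 and 6.97 for 102S at 0.2 µg, 7.29, 7.59 and 7.59 for 102S at 2 µg, 8.20, 8.21 and 8.39 for MCC at 0.2 µg and 8.10, 8.36 and 8.42 for MCC at 2 µg. Its spread within groups was small. The difference was 1.26 ± 0.13 at 0.2 µg (2.39-fold, adjusted p = 4.38e-05) and 0.80 ± 0.13 at 2 µg (adjusted p = 0.00253). Dut, which removes dUTP so that uracil stays out of DNA, was higher by 1.14 ± 0.14 and 0.55 ± 0.14. Its 2 µg call was lost in some omissions of 1 array, with an adjusted p of up to 0.108. At 2 µg the dimmer probe sets of Dut (0.12, adjusted p = 0.78) and Rrm1 (1.61, adjusted p = 0.149) were not called. Tyms, thymidylate synthase, lay below the filter, at 3.34, 3.34 and 3.70 at 0.2 µg and 3.43, 3.78 and 3.78 at 2 µg of 102S, then 3.88, 3.69 and 4.39 at 0.2 µg and 3.96, 4.21 and 3.52 at 2 µg of MCC. All its groups overlapped, and in the fit without a filter it was called in none of the 6 comparisons (adjusted p = 0.2 at 0.2 µg). Tyms also shares a probe set with other symbols, which was not used.

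Chaf1b, a subunit of the chromatin assembly factor that places histones behind the fork, read 5.13, 5.24 and 5.05 for 102S at 0.2 µg, 5.44, 5.24 and 5.23 for 102S at 2 µg, 5.99, 5.37 and 5.53 for MCC at 0.2 µg and 5.77, 5.92 and 5.28 for MCC at 2 µg. It was called at neither dose, with 0.49 ± 0.20 and 0.35 ± 0.20. Of the S phase regulators, Chek1, the checkpoint kinase that guards stalled forks, read 3.52, 3.59 and 4.04 at 0.2 µg and 4.86, 5.51 and 5.49 at 2 µg of 102S, then 6.94, 6.98 and 7.57 at 0.2 µg and 6.38, 6.67 and 6.26 at 2 µg of MCC, with no overlap between any 2 groups. It was higher with MCC by 3.45 ± 0.24 at 0.2 µg, a lower limit (adjusted p = 1.92e-06), and by 1.15 ± 0.24 at 2 µg (2.22-fold, adjusted p = 0.00936).

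The E-type cyclins, which drive Cdk2 at the G1 to S transition, differed from each other in brightness and in call. Ccne1 read 5.77, 6.01 and 6.59 for 102S at 0.2 µg, 5.95, 6.73 and 6.73 for 102S at 2 µg, 6.38, 6.89 and 7.12 for MCC at 0.2 µg and 6.47, 6.91 and 6.69 for MCC at 2 µg. All its groups overlapped, and 0.67 ± 0.27 at 0.2 µg and 0.22 ± 0.27 at 2 µg were not called. Ccne2, below the filter, read 3.29, 2.97 and 3.49 at 0.2 µg and 3.80, 3.61 and 4.14 at 2 µg of 102S, then 5.26, 4.88 and 5.47 at 0.2 µg and 5.06, 5.22 and 4.97 at 2 µg of MCC. Its MCC arrays lay above all 102S arrays, and without a filter the differences of 1.96 ± 0.20 and 1.23 ± 0.20 at 0.2 and 2 µg had adjusted p of 2.94e-05 and 0.00297, both lower limits.

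E2f1, an activating member of the E2F family, read 4.69, 4.67 and 4.86 for 102S at 0.2 µg, 4.68, 4.67 and 5.01 for 102S at 2 µg, 5.26, 4.97 and 5.19 for MCC at 0.2 µg and 5.18, 5.41 and 5.89 for MCC at 2 µg. Replicate 3 with 2 µg of MCC was its highest array. It was called at 2 µg only, by 0.71 ± 0.19 (1.63-fold, adjusted p = 0.0356, lost in 7 of 12 omissions), with 0.40 ± 0.19 at 0.2 µg. A second, dimmer probe set of E2f1 gave the reverse calls, with 0.83 ± 0.15 at 0.2 µg (adjusted p = 0.00268) and 0.45 ± 0.15 at 2 µg (adjusted p = 0.0778).

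**Figure D3:**
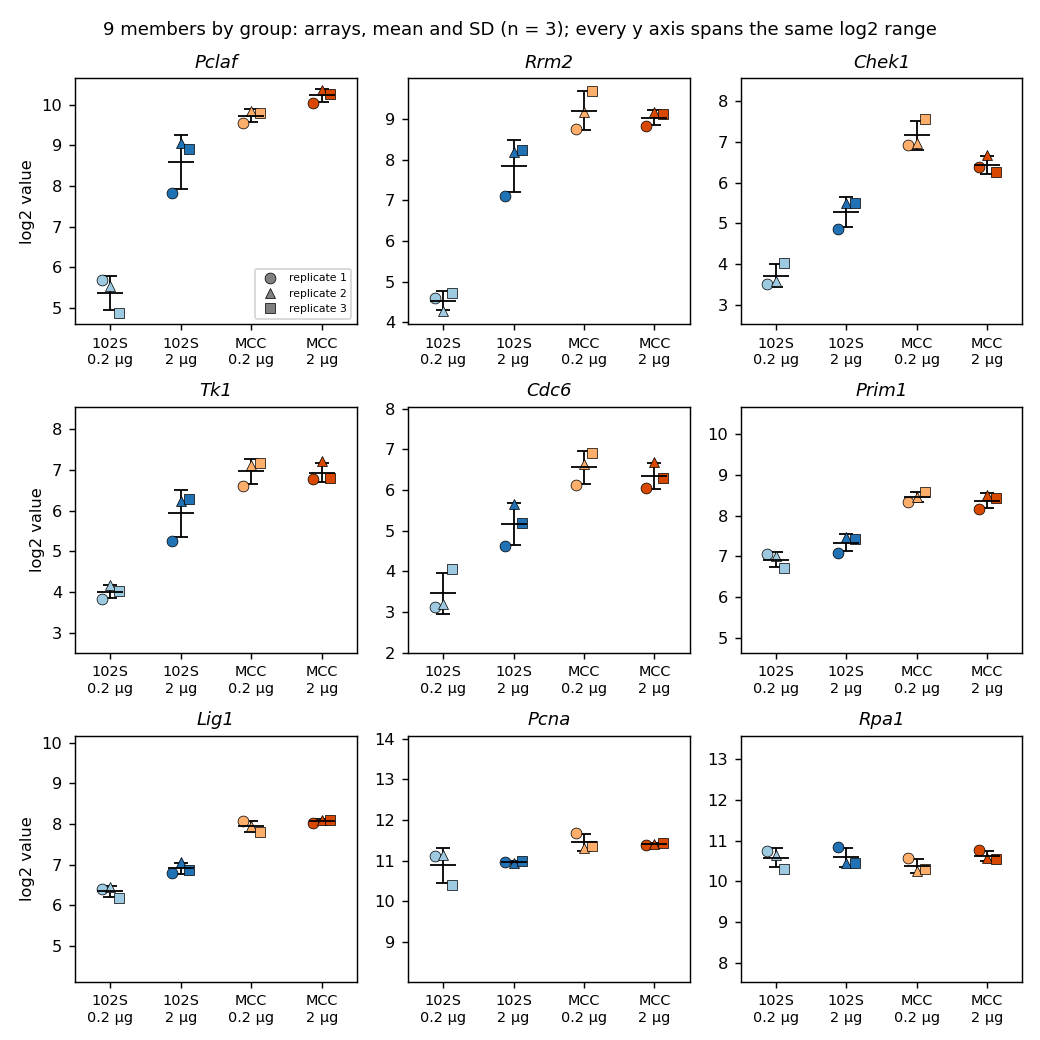
Each panel shows 1 gene, with the 3 arrays of each group as points (circle, triangle and square for replicates 1, 2 and 3), a long line for the mean and bars for the SD (n = 3); every y axis spans the same number of log2 units. In Pclaf, Rrm2, Tk1, Cdc6 and Chek1 the group with 2 µg of 102S stands well above that with 0.2 µg, while Pcna and Rpa1 are nearly flat.

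Raising the dose of the weak agonist changed a small subset strongly. With 102S, 7 of the 37 genes were called higher at 2 µg than at 0.2 µg and 0 lower, against 2.66% of all probe sets higher and 3.16% in either direction, with a median difference of 0.35 against -0.00 over all probe sets. Rrm2 was higher by 3.31 ± 0.30 (9.89-fold, adjusted p = 6.94e-05) and Pclaf by 3.23 ± 0.29 (9.35-fold, adjusted p = 5.92e-05). The Rrm2 mean with 0.2 µg of 102S, 4.53 ± 0.24, lay just above the filter. Its dimmest tested probe set had means of 4.70 ± 0.27 and 5.75 ± 0.20 with 0.2 and 2 µg of 102S, a smaller difference. Tk1, Cdc6 and Chek1 were higher by at least 1.92 ± 0.27, 1.70 ± 0.32 and 1.57 ± 0.24. Rfc4 and Lig1 rose by 0.68 ± 0.15 and 0.56 ± 0.13, and the smallest differences were those of Rpa1 (0.01 ± 0.15) and Pole2 (0.02 ± 0.14).

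The calls of Pclaf, Rrm2, Tk1 and Chek1 held whichever array was left out; those of Cdc6, Rfc4 and Lig1 did not. The count was 4 without replicate 1 or 2 of 0.2 µg 102S and without replicate 2 or 3 of 2 µg 102S. Over all 37 genes the median difference was 0.20 within replicate 1, with 27 positive, and 0.40 within replicates 2 and 3, with 33 positive, against 50.4% and 49.9% of all probe sets positive. In 2 µg of 102S, replicate 1 was the lowest array of Pclaf, Rrm2, Tk1, Cdc6 and Chek1.

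Raising the dose of the strong agonist gave no call without the replicate number in the fit and 5 calls, all lower, with it. Without it the count was 0 of 37 in either direction by limma, against 1.76% of all probe sets, with 7 genes at an unadjusted p under 0.05 and a median difference of -0.12 against -0.01. For 32 of the 37 the 95% interval lay within 1 log2 unit of 0. The largest differences were those of Cdt1, -0.76 ± 0.21 (adjusted p = 0.0957), and Chek1, -0.73 ± 0.24 (adjusted p = 0.151), both lower at 2 µg. Those of Mcm4 (-0.01 ± 0.14) and Rrm1 (0.02 ± 0.13) were the smallest. Without replicate 1 of 0.2 µg MCC 2 genes were called, Cdt1 and Pold1. Same-numbered arrays of the MCC groups deviated together, though numbers 2 and 3 were not set apart from each other. With the replicate number as a block 5 genes were called lower at 2 µg, against 4.81% of all probe sets lower. These were Pold1 (-0.68 ± 0.13, adjusted p = 0.00786), Cdt1 (-0.76 ± 0.15, adjusted p = 0.00943), Chek1 (-0.73 ± 0.19, adjusted p = 0.0335), Mcm7 (-0.30 ± 0.09, adjusted p = 0.0443) and Mcm2 (-0.47 ± 0.14, adjusted p = 0.0492). These calls are those of the highest-mean probe set of each gene. Another tested probe set of Mcm7 had means of 8.39 and 8.57 with 0.2 and 2 µg of MCC. That of Mcm2 had 7.84 and 7.82. The remaining tested probe sets of Mcm7, and the second ones of Cdt1 and Pold1, had lower means at 2 µg. Over all 37 genes the median was -0.19 within replicate 1 and -0.10 within replicates 2 and 3.

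**Figure D4:**
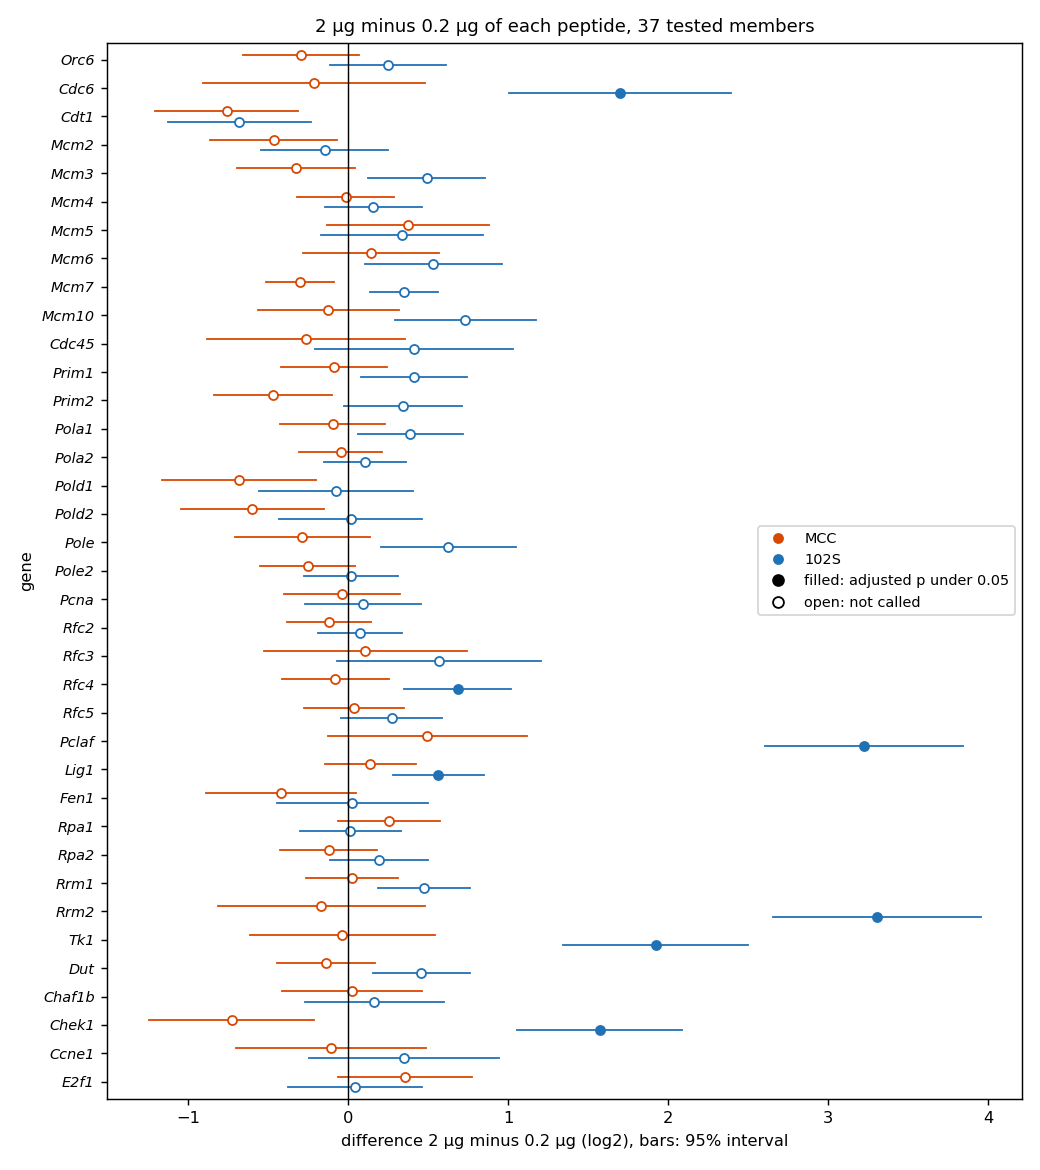
Points give the difference 2 µg minus 0.2 µg for the 37 tested genes with MCC (orange) and with 102S (blue) on the log2 scale, with bars for the 95% interval and filled points for adjusted p under 0.05. The 7 filled points are all blue and to the right of 0, and no orange point is filled.

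The peptide difference itself was tested between doses with the interaction term, which subtracts the peptide difference seen at 0.2 µg from that seen at 2 µg. It was called for 4 genes, all lower, against 0.693% of all probe sets lower and 0.767% in either direction. Rrm2 had -3.47 ± 0.42 (adjusted p = 0.00182), Pclaf -2.73 ± 0.40 (adjusted p = 0.0075), Chek1 -2.30 ± 0.34 (adjusted p = 0.00687) and Tk1 -1.96 ± 0.37 (adjusted p = 0.0323). The peptides thus differed less at 2 µg than at 0.2 µg for these genes, and the Chek1 and Tk1 values are inexact because their lowest group lay below the filter. The Tk1 call was lost in 8 of 12 omissions, with an adjusted p of up to 0.109. Cdc6, at -1.91 ± 0.45, did not pass (adjusted p = 0.0912), and the smallest values were those of Mcm5 (0.04 ± 0.33) and Cdt1 (-0.08 ± 0.29). Of the 33 genes without a call, 19 had a 95% interval within 1 log2 unit of 0.

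Where 2 µg of 102S stood between 0.2 µg of 102S and 0.2 µg of MCC varied by gene. Over the 27 genes called at 0.2 µg, it had covered a median of 36.0% of that gap, from 3.2% for Fen1 to 73.9% for Pclaf. It was over 50% for 4 genes: Pclaf, Rrm2 (70.8%), Tk1 (64.9%) and Cdc6 (54.8%). For Mcm5 it was 25.7% and for Prim1 26.8%. These shares rest on means of 3 arrays that also served the calls, and for Tk1, Cdc6, Chek1 and Cdc45 the lower end of the gap lay below the filter.

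A low dose of the strong agonist still gave higher values than a high dose of the weak one. Between 0.2 µg of MCC and 2 µg of 102S, 15 of 37 genes were called higher with MCC and 0 lower, against 1.56% of all probe sets higher and 2.48% in either direction, with a median difference of 0.68 against -0.04. The largest were Chek1 (1.88 ± 0.24, 3.67-fold, adjusted p = 0.00214) and Cdc6 (1.40 ± 0.32, adjusted p = 0.0403), followed by Rrm2 (1.36 ± 0.30) and Pole (1.35 ± 0.19). Pola2 (-0.00 ± 0.12) and Pold2 (0.19 ± 0.21) had the smallest. Pclaf and Tk1, with 1.14 ± 0.29 and 1.04 ± 0.27, did not pass (adjusted p = 0.0604 and 0.0641). Same-numbered arrays of these groups also deviated together, though numbers 2 and 3 were not set apart from each other. With the replicate number as a block 25 genes were called higher, against 3.56% of all probe sets. The 10 added were Fen1, Tk1, Mcm10, Pclaf, Mcm2, Mcm6, Prim2, Pold1, Cdt1 and Rfc2 (adjusted p = 0.00211 to 0.0482). Leaving out 1 array changed the count most without replicate 1 or 3 of 2 µg 102S (6 and 9) and without replicate 2 or 3 of 0.2 µg MCC (7 and 6), and 6 genes stayed called in every omission: Mcm7, Prim1, Pola1, Pole, Lig1 and Chek1.

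Probe sets of the same gene did not always agree, and some moved with the β-actin control. Of the 18 genes with several tested probe sets, none had calls in opposite directions in the same comparison. All tested probe sets were called for 9 of the 14 such genes with any call at 0.2 µg, 2 of 8 at 2 µg, 1 of 2 for the dose of 102S, 0 of 1 for the interaction and 1 of 9 for 0.2 µg of MCC against 2 µg of 102S. For Rrm1, the second, dimmer probe set read 7.11, 7.19 and 7.25 with 2 µg of MCC but 7.13, 4.89 and 4.31 with 0.2 µg of MCC, where the brighter one read 8.20, 8.21 and 8.39. The β-actin 3′ minus 5′ difference of the same 3 arrays was 0.74, 1.78 and 2.33, so the probe set was lowest where this difference was highest; the part of RNA quality in this was not tested. The same was seen for Rpa2, whose dimmer probe set read 6.57, 4.97 and 3.89 there against 7.90, 7.98 and 8.14 for the brighter. With the dimmer probe sets the peptide difference at 0.2 µg was 0.02 ± 0.64 for Rrm1 and -0.40 ± 0.58 for Rpa2, not called. The Rrm2 interaction also varied, at -3.47 ± 0.42, -2.02 ± 0.33 and -0.27 ± 0.30 for its 3 probe sets, the last not called.

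**Figure D5:**
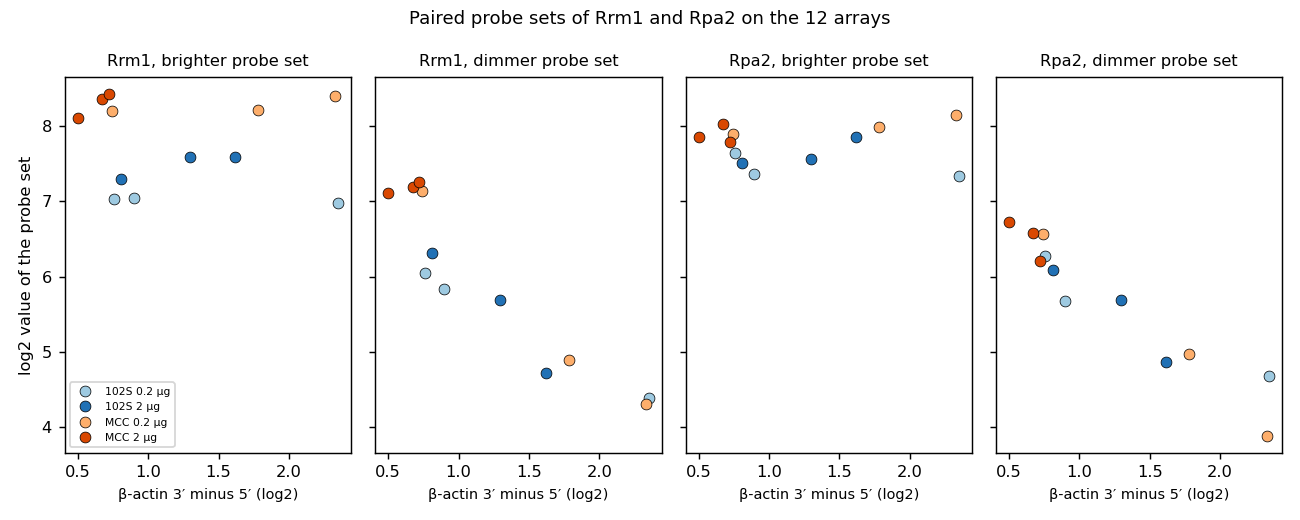
Points are the 12 arrays, coloured by group; the x axis is the β-actin 3′ minus 5′ difference and the y axis the log2 value of a probe set of Rrm1 or Rpa2. The brighter Rrm1 probe set separates the peptides on all arrays and that of Rpa2 at 0.2 µg, while the dimmer ones fall to the right.

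Of 101 further genes of the pathway, listed by role and not by their change, 76 were tested. At 0.2 µg 25 were called higher with MCC and 3 lower (6.45% of all probe sets were lower), with a median difference of 0.08, and at 2 µg 12 higher and 6 lower (6.23% lower), with a median of 0.04. Among 29 other origin and fork genes, 14 were higher and 1 lower at 0.2 µg, and 5 higher and 3 lower at 2 µg. Uhrf1, which carries DNA methylation through replication, was higher by 3.16 ± 0.26 (8.95-fold, adjusted p = 6.92e-06) and 1.59 ± 0.26 (adjusted p = 0.0025). Gins1, part of the active helicase, was higher by 1.87 ± 0.26 at 0.2 µg, and Dna2, a nuclease of Okazaki fragments, by 1.10 ± 0.22 at 2 µg. Donson was lower at both doses (-0.55 ± 0.12 and -0.47 ± 0.12), and Orc5 at 2 µg (-0.54 ± 0.15).

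In the E2F and RB family and its cyclin targets, 6 of 14 genes were higher and 0 lower at 0.2 µg, and 5 were higher and 1 lower at 2 µg. Ccna2, the cyclin of S and G2 phase, was higher by at least 3.79 ± 0.27 at 0.2 µg and by 1.63 ± 0.27 at 2 µg (3.09-fold), and its kinase partner Cdk1 by at least 2.55 ± 0.20 and by 1.41 ± 0.20. E2f5, a repressive family member, was lower at 2 µg (-0.97 ± 0.19, adjusted p = 0.00725). Of 7 checkpoint genes 1, Chek2, was called, at 0.2 µg (1.10 ± 0.28).

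Of 5 genes that make or degrade deoxynucleotides in resting cells, 1, Rrm2b, was called between the peptides, and it was lower with MCC. Rrm2b, the ribonucleotide reductase subunit that serves non-dividing and damaged cells, read 7.87, 7.64 and 7.82 at 0.2 µg and 7.60, 7.23 and 7.25 at 2 µg of 102S, then 6.94, 6.68 and 6.76 at 0.2 µg and 6.60, 6.59 and 6.33 at 2 µg of MCC. No 2 groups overlapped, and it was lower with MCC at 0.2 µg (-0.98 ± 0.15, adjusted p = 0.000796) and at 2 µg (-0.85 ± 0.15, adjusted p = 0.00364), in an order opposite to that of Rrm2 for the peptides. Tk2, the mitochondrial thymidine kinase, had -0.85 ± 0.27 (adjusted p = 0.0554) and -0.58 ± 0.27, Samhd1, which degrades deoxynucleotides, -0.18 ± 0.15 and -0.18 ± 0.15, and Dck, the deoxycytidine kinase, -0.01 ± 0.13 and 0.06 ± 0.13. Dguok, the mitochondrial deoxyguanosine kinase, had a positive difference at 0.2 µg with no overlap between the groups (0.35 ± 0.13, adjusted p = 0.0919) and -0.03 ± 0.13 at 2 µg.

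Few genes of base synthesis were called between the peptides. Of 8 purine genes 1 was higher and 1 lower at each dose: Paics, a mid-pathway enzyme, by 0.39 ± 0.10 and 0.45 ± 0.10, and Prps1, which makes the ribose donor, with -0.41 ± 0.12 and -0.65 ± 0.12. Of 13 pyrimidine and folate genes, 3 were higher at 0.2 µg (Dtymk, by 0.50 ± 0.12, Nme1, by 0.31 ± 0.10, and Nme2) and 1 at 2 µg (Nme2, by 0.28 ± 0.08); Nme1 and Nme2 are close paralogs whose probes may read each other. For the pyrimidine and folate list the median difference was -0.38 with the dose of MCC, with 1 of 13 called, and 0.43 for 0.2 µg of MCC against 2 µg of 102S, with Mthfd1, Nme1 and Nme2 called higher. The highest purine value, 0.66 ± 0.28 for Adss at 2 µg, was not called (adjusted p = 0.183). With the dose of 102S 6 of the 76 genes were called higher and 1 lower (0.509% of all probe sets lower), and with the dose of MCC 0 higher (0.708%) and 2 lower (1.05%). Mthfd1, a folate enzyme named here after its values were seen, was lower at 2 µg with both peptides, with differences of -0.64 ± 0.11 with MCC (adjusted p = 0.0142) and -0.71 ± 0.11 with 102S (adjusted p = 0.00327). The other gene lower with the dose of MCC was E2f5 (-0.98 ± 0.19).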

How the data were processed

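The 12 arrays are Affymetrix mouse 3′ arrays of sorted T cells; per the labels' protocols 100 ng of total RNA was labelled with a transcription step of 16 h. The deposited table holds 1 log2 value per probe set and array (22690 probe sets, values 1.86 to 14.7), whose scale was read from the values. Per the submitters' processing notes GCOS 1.4 was used; the background correction, summarisation and scaling that gave the log2 values are not given in the sources used here, and the values were used as deposited. Arrays have no read depth, and their number limits the precision: the median standard error of a difference was 0.184.

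Symbols came from the platform annotation. The 64 control probe sets and probe sets averaging below the 40th percentile of all (log2 4.48) were dropped, leaving 13556. The highest-mean tested probe set stood for a gene. The log2 values were fitted with limma 3.58.1 (lmFit, eBayes with a trend, R 4.3.3) with 4 group means, 8 residual and 4.16 prior degrees of freedom, 2-sided, with Benjamini-Hochberg adjustment per comparison and a threshold of 0.05. The fit was tested on simulated data. Whether replicate numbers pair the samples was checked by correlating deviations from group means over all tested probe sets. All same-numbered correlations exceeded 0.1 between the 2 µg groups (0.20 to 0.60), the MCC groups (0.20 to 0.56) and 0.2 µg MCC with 2 µg 102S (0.39 to 0.82). There the pairing comes from the data. Not all exceeded it between the 0.2 µg groups (-0.29 to 0.79) or the 102S groups (-0.06 to 0.80). Arrays numbered 2 and 3 also correlated with each other. The highest such values were 0.25 (2 µg groups), 0.22 (MCC groups) and 0.43 (0.2 µg MCC with 2 µg 102S). In these comparisons the correlations thus set number 1 apart, but not numbers 2 and 3 from each other. The block was fitted over all 12 arrays. Member values were also recomputed under 12 other settings and 12 omissions of 1 array. Member genes were all accounted for, with values in every array for representatives of each role and for the 2 largest and 2 smallest differences of a comparison; of other pathway genes the 2 largest increases and decreases among those called in a list were named, with Rrm2b, Tk2, Samhd1 and Dck. The members, lists and rules were chosen with earlier results of these data known. Promoters came from RefSeq (GRCm38.p6). Python 3.11.15 with pandas 2.3.3 and matplotlib 3.10.9 made the summaries and plots.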

Additional observations from a re-analysis of the deposited data

Results flagged for a closer look

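In 5 genes the peptide difference was called changed with the dose, by the interaction term of limma with Benjamini-Hochberg adjustment. The MCC minus 102S difference was smaller at 2 µg than at 0.2 µg, with an interaction of -3.47 log2 for Rrm2 (adjusted p = 0.00182), -2.73 for Pclaf (adjusted p = 0.0075), -2.30 for Chek1 (adjusted p = 0.00687), -1.96 for Tk1 (adjusted p = 0.0323) and, outside the 41 genes, -2.16 for Ccna2 (adjusted p = 0.0202). The means of Chek1, Tk1 and Ccna2 with 0.2 µg of 102S lay below the filter, so their values are inexact. Of the 4 calls among the 41 genes, 3 held whichever array was left out. The other, Tk1, had an adjusted p of up to 0.109 in these omissions. For Rrm2 the dimmest tested probe set gave -0.27 (adjusted p = 0.775).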

How the results depend on the processing

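The number of the 37 genes called at 0.2 µg, 27 for MCC against 102S, stayed within 1.5 times under every setting run, and lay between 22 and 27 when 1 array was left out. At 2 µg the 16 calls (10.3% of all probe sets in either direction) became 10 with a stricter filter at the 60th percentile (13.3%), which tests fewer genes (28). They became 9 with replicates 2 and 3 only (5.69%) and 22 with the β-actin covariate (24.6%). Leaving out 1 array gave 9 to 20 (5.16% to 11.8%). The share over all probe sets thus moved with the settings as well. For the other comparisons that share is not given here. For the dose of MCC, 0 became 1 with replicates 2 and 3 only and 3 with replicate 1 as a term, and 0 to 2 with 1 array left out. For the dose of 102S, 7 became 4 with the stricter filter, 14 with the β-actin difference as a covariate and 12 with replicate 1 as a term, and 4 to 8 with 1 array left out. Both the 14 and the 12 include Cdt1, called lower (adjusted p = 0.00586 and 0.0257). For the interaction, 4 became 2 with the stricter filter, and 3 to 5 with 1 array left out. For 0.2 µg of MCC against 2 µg of 102S, 15 became 25 with the β-actin covariate and 4 with replicates 2 and 3 only, and 6 to 20 with 1 array left out. The term for replicate 1, and a fit that drops 2 arrays with a high β-actin difference, were added after seeing the data. Except for fewer genes or samples, the cause of these shifts was not tested. With the lowest-mean probe set of each gene 2 values reversed, Rpa2 at 0.2 µg (-0.40) and Rrm1 for 0.2 µg of MCC against 2 µg of 102S (-0.13), neither called.

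The groups share replicate numbers, and a fit with the replicate number as a block called 22, 30, 5, 13, 7 and 25 genes in the 6 comparisons in the order of the report's fits (MCC against 102S at 2 µg and 0.2 µg, dose of MCC, dose of 102S, interaction, low MCC against high 102S). At 2 µg the block also raised the share of all probe sets called in either direction, from 10.3% to 18.3%. The higher count there is thus not particular to these genes. For the 30, 13 and 7 no such share is given here. The 13 for the dose of 102S include Cdt1, called lower. At 0.2 µg same-numbered arrays correlated at 0.792, -0.287 and 0.656 for numbers 1, 2 and 3, and for the dose of 102S at 0.797, -0.064 and 0.645. The evidence that the numbers pair these samples is thus uneven, and the interaction uses all groups. For all 6 comparisons the block result is a hint from the data, not the design. Of the 12 arrays, 10 correlated best with an array of their own number.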

Other observations

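Within groups, replicate 1 was often the lowest array of the replication genes. With 2 µg of 102S it was the lowest for 27 of the 37 tested genes, against 34.5% of all tested probe sets, and lay a median of 0.20 log2 below the mean of the other arrays (-0.20, against 0.04 over all probe sets). With 2 µg of MCC it was the lowest for 26 (16.5% of all probe sets; median -0.23 against 0.09), and with 0.2 µg of MCC for 21 (36.4%; median -0.12 against 0.05). With 0.2 µg of 102S it was the lowest for 11 (27.9%; median 0.01 against 0.04), and replicate 3 for 19 (51.0%). These values were looked up after the data were seen, and their cause was not tested.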
